A study of Homo sapiens with 9 samples.

Results

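The 10 genes described here are DUSP4, DUSP5, DUSP6, SPRY2, SPRY4, SPRED1, SPRED2, ETV4, ETV5 and PHLDA1, known transcriptional targets or feedback inhibitors of the kinase ERK. They were taken by symbol from a table of 20379 genes, and all 10 were found and had enough counts to be tested among 12657 genes. RNA came from HCCLM3, an established human hepatocellular carcinoma cell line, transfected with 1 of 3 siRNAs. A non-targeting control siRNA served as the reference, and the others were directed against UXS1, which makes UDP-xylose for proteoglycan chains, and MRPL42, a protein of the mitochondrial ribosome. Each group had 3 libraries, here called a, b and c after the letters in the table. The labels give no dose or time after transfection, nor do they say whether each library had a culture of its own, so the p-values measure library-to-library spread, which may be technical.

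Growth factors bind receptor tyrosine kinases, which switch on RAS and, through RAF and MEK, the kinases ERK1 and ERK2. Active ERK raises the transcription of genes whose products switch the pathway off again, so that their mRNA is widely used as a readout of pathway output. DUSP4, DUSP5 and DUSP6 encode phosphatases that remove the activating phosphates from MAP kinases, with DUSP6 acting on ERK in the cytoplasm and DUSP5 on ERK in the nucleus. SPRY2 and SPRY4 are Sprouty proteins, which block signalling between the receptors and ERK. SPRED1 and SPRED2 bring neurofibromin to the membrane, where it turns RAS off. ETV4 and ETV5 are ETS-family transcription factors of the PEA3 group, and PHLDA1 is a pleckstrin-homology domain protein induced by growth factors. The repressor capicua (CIC) binds octamers at several such genes, and ERK signalling relieves this repression.

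RefSeq promoter windows on GRCh38.p14 ran from 250 bases before to 50 after a start site. The search covered 9 windows of 6 of the 10 genes (DUSP6, SPRY2, SPRY4, SPRED1, SPRED2 and PHLDA1). DUSP4 was left out of the search, and DUSP5, ETV4 and ETV5 had no window at hand. The CIC octamer was searched as TGAATGAA, TGAATGGA, TCAATGAA or TCAATGGA on both strands. It was found in the DUSP6 window, where it occurred 2 times with first bases at -24 and 2 relative to the start site, and in none of the other 8 windows. Of all 35116 windows of this length, 3.77% held at least 1 octamer and 0.327% held 2 or more. The DUSP6 sequence is shown because it holds the octamers and DUSP6 had the largest fold change of the 10 genes, and the first SPRED2 window because SPRED2 was called lower in some of the same fits as DUSP6 (without control library c and with DESeq2) and its window holds none. Both genes lie on the minus strand. The printed parts cover chr12:89352490-89352751 for DUSP6 and chr2:65432600-65432849 for SPRED2, written 5′ to 3′ on the gene's strand with the octamers in capitals.
DUSP6: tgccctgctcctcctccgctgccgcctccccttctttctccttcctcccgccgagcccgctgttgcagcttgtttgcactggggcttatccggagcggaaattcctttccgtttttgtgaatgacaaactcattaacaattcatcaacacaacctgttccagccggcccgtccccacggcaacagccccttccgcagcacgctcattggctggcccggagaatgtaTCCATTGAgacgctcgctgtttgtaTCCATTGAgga
SPRED2: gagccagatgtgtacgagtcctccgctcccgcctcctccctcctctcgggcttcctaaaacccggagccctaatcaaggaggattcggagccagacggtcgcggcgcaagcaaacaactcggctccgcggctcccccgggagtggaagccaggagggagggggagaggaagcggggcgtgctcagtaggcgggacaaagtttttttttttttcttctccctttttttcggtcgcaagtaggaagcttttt
Other motifs were searched on both strands in the same windows. The ETS core with flank CCGGAA, held by 17.2% of all windows, was found in 1 window each of SPRY2 and PHLDA1. The AP-1 site TGANTCA, held by 7.71% of all windows, was found 2 times in the second SPRED2 window. The cyclic AMP response element TGACGTCA, held by 1.85% of all windows, was found in none of the 9. These matches are letters in a window only, and the search terms were chosen after expression values had been seen.

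Library totals lay between 15265959 and 22400560 estimated counts, and the 10 genes had between 138 (SPRY2) and 6422 (PHLDA1) counts per library. Levels are given as CPM, the count scaled to library size with TMM factors. Control library c stood apart: its log2 CPM correlated across genes with control libraries a and b at r = 0.963 and 0.964, against 0.993 between a and b. Its summed hepatocyte markers (8 genes) were 185 CPM, the lowest of all libraries, against 204 to 234 in the others, and its summed histone mRNAs were the highest. Most fold changes and calls of the 10 genes are therefore given over all 9 libraries and again without that library. MRPL42 siRNA library b stood apart less far. It correlated with libraries a and c of its group at r = 0.986 and 0.989, against 0.992 between those. Of the 8 hepatocyte markers, HNF4A was at 52.8 to 111 CPM, APOB at 55.3 to 83.8, TF at 12.5 to 42.2, FGB at 1.59 to 39.7, ALB at 3.61 to 14.4 and SERPINA1 at 1.22 to 3.56 CPM, with APOA1 and TTR under 1 CPM in every library. These markers did not move together in control library c. HNF4A was highest there, at 111 CPM against 52.8 to 57.8 in the others, while APOB, TF, FGB, ALB and SERPINA1 were lowest there. GPC3, a liver cancer marker, had no count. The library labels could not be checked firmly by the targets. The word knockdown below names the siRNA given, not a shown loss of its target. UXS1 was at 144, 151 and 179.7 CPM in the control libraries and 145, 138 and 141 CPM after UXS1 siRNA, a log2 change of -0.17 (edgeR quasi-likelihood test, adjusted p = 0.348), and of -0.08 without control library c (adjusted p = 0.519). MRPL42 was at 100.4, 118 and 147 CPM in the control libraries and 104, 93.0 and 81.8 CPM after MRPL42 siRNA, a log2 change of -0.39 (edgeR adjusted p = 0.185), and of -0.24 without control library c (adjusted p = 0.252).

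The first question was whether the output and feedback genes of ERK changed after UXS1 siRNA. All 10 had lower mean levels than in the control libraries, with a median log2 fold change of -0.40 against -0.00 over all genes tested, but none passed an adjusted p of 0.05 over 9 libraries (edgeR quasi-likelihood test, Benjamini-Hochberg over all genes tested). That test called 0.0158% of all genes lower. At an unadjusted p below 0.05, 7 of the 10 were lower, against 7.37% of all genes. Without control library c, 6 of the 10 were called lower, namely DUSP4, DUSP5, DUSP6, SPRED2, ETV4 and ETV5, against 1.07% of all genes. With MRPL42 siRNA library b left out instead, DUSP5, DUSP6, SPRED2 and ETV5 passed, against 0.297% of all genes. That library belongs to neither group compared and enters only through the shared fit, and the DUSP6 log2 fold change stayed at -0.84. None of the 10 was called higher in any of these fits.

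After MRPL42 siRNA the 10 mean levels were again all below those of the controls. The median log2 fold change was -0.34, against -0.01 over all genes tested. None passed the adjusted threshold over 9 libraries, where 0% of all genes were called lower, and 5 of the 10 had an unadjusted p below 0.05 with a lower level, against 8.83% of all genes. Without control library c, DUSP6, SPRED2 and ETV5 were called lower, against 0.792% of all genes. DUSP6 and SPRED2 passed with MRPL42 siRNA library b left out instead, against 0.485% of all genes. The 2 knockdown comparisons use the same control libraries, so they are not independent of each other. In RNA from whole cultures, fewer cells that express a gene and less RNA per cell cannot be told apart.

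**Figure D1:**
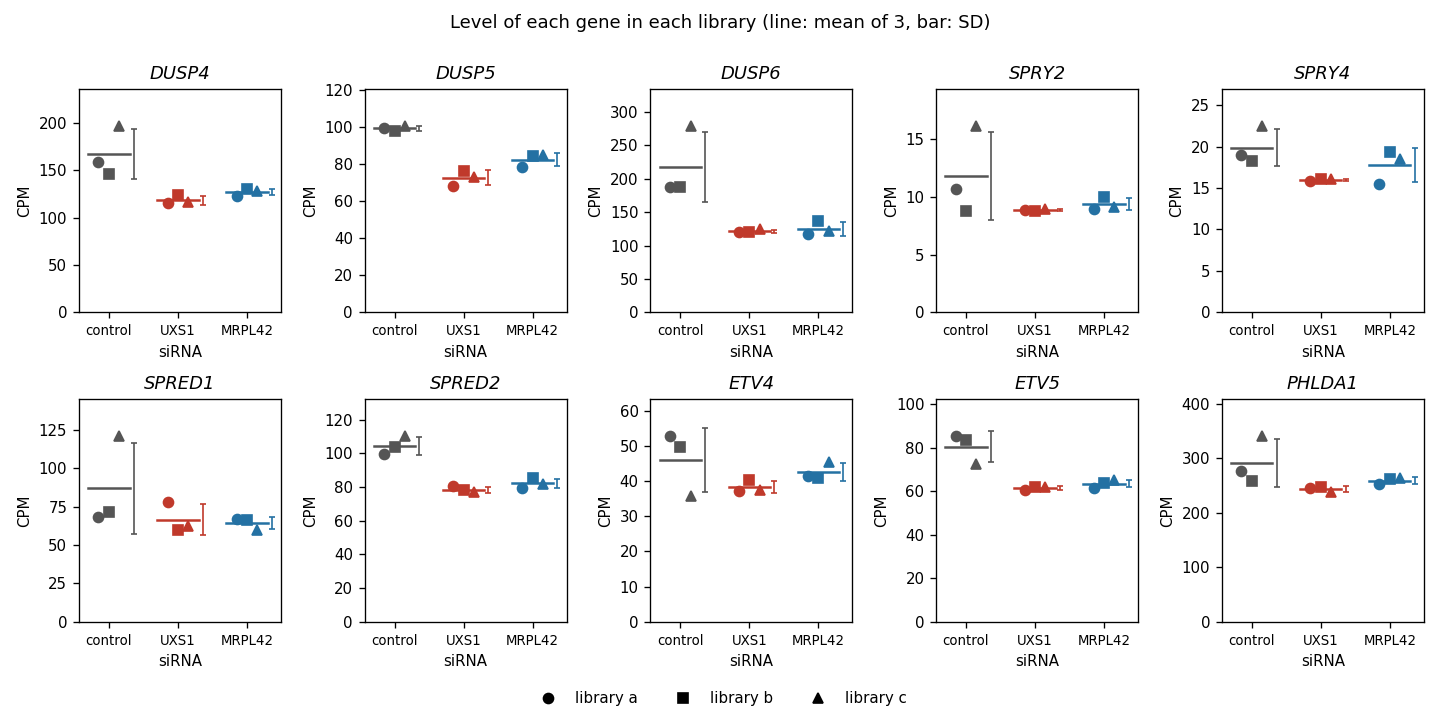
Level of each of the 10 genes in CPM (vertical axis, linear from 0) in the 3 libraries of each siRNA group (horizontal axis); symbols mark libraries a, b and c, lines the mean of 3 libraries and bars the SD. For DUSP4, DUSP5, DUSP6, SPRED2 and ETV5 all 6 knockdown libraries lie below all 3 control libraries, and control library c is the highest control for 8 of the 10 genes.

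Among the MAP kinase phosphatases, DUSP6 (chr12:89347232-89353271, minus strand) had the largest fold change. It stood at 187, 188 and 278 CPM in control libraries a, b and c. After UXS1 siRNA it stood at 120.3, 120.4 and 124 CPM, and after MRPL42 siRNA at 117, 137 and 122 CPM. The 6 knockdown libraries were all below the lowest control, and control library c was far above the other 2 controls. The UXS1 siRNA change was -0.84 ± 0.15 (log2 fold change ± SE, n = 3 against 3, edgeR adjusted p = 0.107) and the MRPL42 siRNA change -0.80 ± 0.15 (adjusted p = 0.132). Without control library c the changes were smaller and passed the threshold, at -0.64 ± 0.07 (edgeR adjusted p = 0.0017) and -0.59 ± 0.07 (adjusted p = 0.00368). DUSP6 then stood at 64.9% of its control level after UXS1 siRNA and at 66.8% after MRPL42 siRNA.

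DUSP5 (chr10:110497838-110511544, plus strand) had the tightest controls, at 99.5, 97.7 and 100.3 CPM. It stood at 68.2, 76.2 and 73.1 CPM after UXS1 siRNA and at 78.2, 84.1 and 84.8 CPM after MRPL42 siRNA. The 3 groups did not overlap, with the UXS1 siRNA libraries lowest. The log2 fold change after UXS1 siRNA was -0.45 ± 0.06 over 9 libraries (edgeR adjusted p = 0.0874) and -0.46 ± 0.07 without control library c (adjusted p = 0.00758), so that library barely moved its size. After MRPL42 siRNA it was -0.27 ± 0.06 (adjusted p = 0.135) and -0.27 ± 0.07 (adjusted p = 0.0814).

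DUSP4 (chr8:29333064-29350668, minus strand), a nuclear phosphatase acting on several MAP kinases, was at 159, 146 and 197 CPM in the control libraries. It was at 115, 124 and 116 CPM after UXS1 siRNA and at 123, 130.0 and 128 CPM after MRPL42 siRNA. All knockdown libraries were below the lowest control, and the 2 knockdown groups overlapped each other. Its log2 fold change after UXS1 siRNA was -0.50 ± 0.10 (edgeR adjusted p = 0.156), and -0.38 ± 0.06 without control library c (adjusted p = 0.013). After MRPL42 siRNA it was -0.40 ± 0.10 (adjusted p = 0.135) and -0.27 ± 0.06 (adjusted p = 0.0667).

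The Sprouty genes were the least abundant of the 10 and did not pass in any fit. SPRY2 (chr13:80335976-80340951, minus strand) was at 10.7, 8.75 and 16.1 CPM in the controls, between 8.81 and 8.93 after UXS1 siRNA and between 8.98 and 9.96 after MRPL42 siRNA. All 6 knockdown values lay within the control range, below control libraries a and c and above b. Its log2 fold change after UXS1 siRNA was -0.42 ± 0.20 (edgeR adjusted p = 0.302), and -0.15 ± 0.11 without control library c (adjusted p = 0.52). The MRPL42 siRNA change was -0.34 ± 0.20 (adjusted p = 0.339) and -0.06 ± 0.11 (adjusted p = 0.796). SPRY4 (chr5:142310427-142326455, minus strand) was at 19.0, 18.2 and 22.4 CPM in the controls, at 15.9 to 16.1 after UXS1 siRNA and at 15.5 to 19.4 after MRPL42 siRNA. Its UXS1 siRNA libraries were below all controls, with a log2 fold change of -0.31 ± 0.11 (edgeR adjusted p = 0.215) and of -0.23 ± 0.10 without control library c (adjusted p = 0.244), while the MRPL42 siRNA libraries overlapped the controls.

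The SPRED genes, which act on RAS through neurofibromin, differed from each other in their spread. SPRED2 (chr2:65310851-65432637, minus strand) was at 99.7, 104 and 110.3 CPM in the controls. It was at 80.4, 78.1 and 76.8 CPM after UXS1 siRNA and at 79.4, 85.2 and 82.0 CPM after MRPL42 siRNA. All knockdown libraries were below all controls. Its log2 fold change after UXS1 siRNA was -0.42 ± 0.06 (edgeR adjusted p = 0.0878), and -0.39 ± 0.06 without control library c (adjusted p = 0.00758). After MRPL42 siRNA it was -0.35 ± 0.06 (adjusted p = 0.132) and -0.31 ± 0.06 (adjusted p = 0.0266). SPRED1 (chr15:38252326-38357249, plus strand) was at 68.2 and 71.4 CPM in control libraries a and b and at 121 CPM in c, against 59.6 to 78.0 after UXS1 siRNA and 59.6 to 67.2 after MRPL42 siRNA. Its log2 fold change after UXS1 siRNA went from -0.38 ± 0.21 over 9 libraries to -0.08 ± 0.11 without control library c, and neither passed the threshold (edgeR adjusted p = 0.36 and 0.724). The MRPL42 siRNA change went from -0.43 ± 0.21 (adjusted p = 0.267) to -0.13 ± 0.11 (adjusted p = 0.548).

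The PEA3-group factors ran the other way in control library c, where both had their lowest control level. ETV5 (chr3:186046308-186110318, minus strand) was at 85.5, 83.8 and 72.6 CPM in the controls. It was at 60.6, 61.9 and 62.2 CPM after UXS1 siRNA and at 61.8, 63.9 and 65.2 CPM after MRPL42 siRNA. All knockdown libraries were below all controls, c included. Its log2 fold change after UXS1 siRNA was -0.39 ± 0.07 (edgeR adjusted p = 0.132), and -0.47 ± 0.05 without control library c (adjusted p = 0.00241). After MRPL42 siRNA it was -0.34 ± 0.07 (adjusted p = 0.135) and -0.42 ± 0.05 (adjusted p = 0.00602).

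ETV4 (chr17:43527844-43579620, minus strand) was at 52.8, 49.7 and 35.7 CPM in the controls. It was at 37.1, 40.4 and 37.5 CPM after UXS1 siRNA and at 41.3, 40.9 and 45.5 CPM after MRPL42 siRNA. Control library c was below every knockdown library, and control libraries a and b were above every one. The log2 fold change after UXS1 siRNA was -0.27 ± 0.13 over 9 libraries (edgeR adjusted p = 0.323) and -0.43 ± 0.07 without control library c (adjusted p = 0.0172). After MRPL42 siRNA it was -0.11 ± 0.13 (adjusted p = 0.625) and -0.27 ± 0.07 (adjusted p = 0.0995).

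PHLDA1 (chr12:76025447-76033932, minus strand) was the most abundant of the 10 in CPM. It was at 276, 258 and 341 CPM in the controls, at 238 to 248 after UXS1 siRNA and at 252 to 263 after MRPL42 siRNA. The UXS1 siRNA libraries were below all controls, and the MRPL42 siRNA libraries overlapped them. The log2 fold change after UXS1 siRNA was -0.26 ± 0.10 (edgeR adjusted p = 0.225), and -0.14 ± 0.06 without control library c (adjusted p = 0.201). The MRPL42 siRNA change was -0.17 ± 0.10 (adjusted p = 0.333) and -0.05 ± 0.06 (adjusted p = 0.674).

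**Figure D2:**
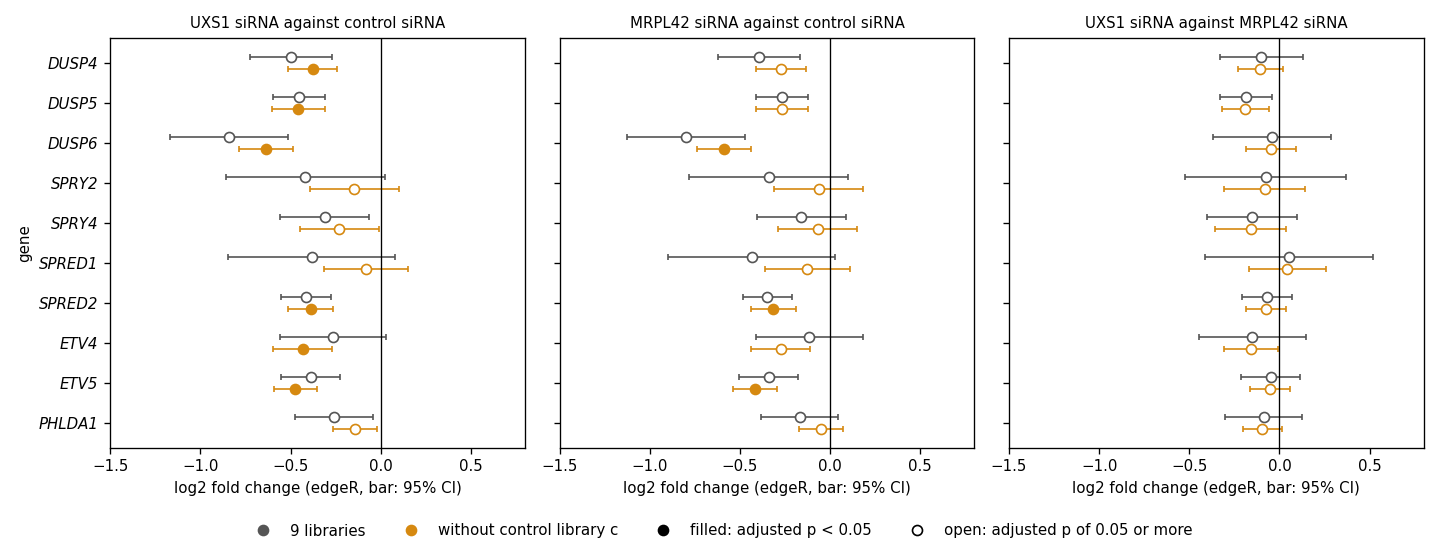
Log2 fold change (horizontal axis, edgeR, with 95% confidence intervals) of the 10 genes (vertical axis) in the 3 comparisons, over 9 libraries (grey) and without control library c (orange); filled points have an adjusted p below 0.05. No grey point is filled, while 6 orange points are filled for UXS1 siRNA, 3 for MRPL42 siRNA and 0 for UXS1 siRNA against MRPL42 siRNA.

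Counted by library rather than by test, 7 of the 10 genes had all UXS1 siRNA libraries below all controls, against 10.9% of all genes tested, and 6 had all MRPL42 siRNA libraries below, against 10.5%. With control library c left out these were 8 genes against 18.5%, and 7 against 17.5%. An exact permutation test of 3 against 3 libraries cannot give a p below 0.1, and the 7 genes without overlap after UXS1 siRNA reached that value (two-sided). DESeq2 over 9 libraries called DUSP4, DUSP5, DUSP6, SPRED2 and ETV5 lower in each knockdown, where it called 1.15% of all genes lower after UXS1 siRNA and 1.22% after MRPL42 siRNA. Limma-voom called none of the 10, with 0.0158% and 0% of all genes called lower.

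The 10 genes varied among themselves both with and without control library c. The log2 fold changes after UXS1 siRNA ran from -0.84 to -0.26 over 9 libraries and from -0.64 to -0.08 without control library c. After MRPL42 siRNA they ran from -0.80 to -0.11 and from -0.59 to -0.05. How far control library c lay from the other controls also differed between the genes. Relative to the mean of control libraries a and b, the level in control library c was 1.73 times for SPRED1, 1.66 times for SPRY2 and 1.49 times for DUSP6. It was 1.29 times for DUSP4, 1.28 times for PHLDA1 and 1.21 times for SPRY4. It was 1.08 times for SPRED2 and 1.02 times for DUSP5, but 0.697 times for ETV4 and 0.857 times for ETV5. Averaged over the 10 genes, the log2 level relative to the mean over libraries was 0.19, 0.13 and 0.41 in the control libraries. It was -0.16, -0.16 and -0.18 after UXS1 siRNA and -0.14, -0.03 and -0.07 after MRPL42 siRNA. In these averages MRPL42 siRNA library b was the nearest of the knockdown libraries to the controls, and all 6 were below the controls.

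**Figure D3:**
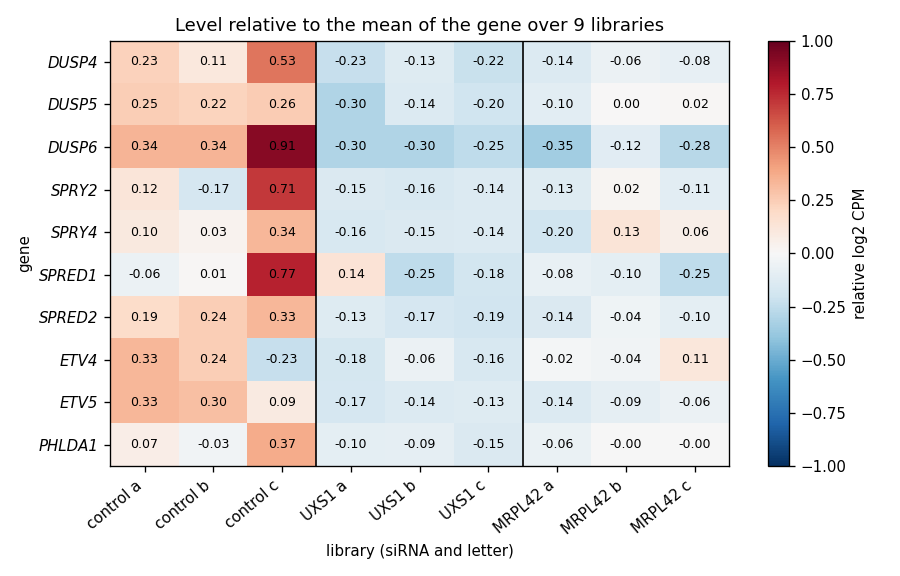
Log2 CPM of each gene (rows) in each library (columns) relative to the mean of that gene over 9 libraries, with the value printed in each cell and red for higher levels. Control library c is highest for 8 genes and lowest of the controls for ETV4 and ETV5, and the UXS1 siRNA libraries are below 0 for every gene except SPRED1 in library a.

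To compare levels between genes, CPM was divided by transcript length in kilobases, from 2182 bases for ETV4 to 7780 for SPRED1. On this scale DUSP6 was the most abundant in the controls, at 49.5 ± 12 CPM per kilobase (SD, n = 3). It was followed by PHLDA1 at 41.7 ± 6.24, DUSP5 at 38.8 ± 0.51, DUSP4 at 30.2 ± 4.72, SPRED2 at 25.5 ± 1.30, ETV5 at 25.5 ± 2.22 and ETV4 at 21.1 ± 4.17 CPM per kilobase. SPRED1 at 11.2 ± 3.81, SPRY4 at 8.35 ± 0.946 and SPRY2 at 4.92 ± 1.59 CPM per kilobase were the lowest. The control ranges separated DUSP5 from DUSP4, ETV4 from SPRED1 and SPRY4 from SPRY2, and overlapped between all other neighbours in this order. Over control libraries a and b alone, DUSP6 stood at 42.6, DUSP5 at 38.6 and PHLDA1 at 38.1 CPM per kilobase, and ETV5 at 26.8 and SPRED2 at 24.8, so that these pairs of neighbours changed places.

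The knockdowns were also compared with each other. No gene of the table passed the adjusted threshold in this comparison over 9 libraries (0% called lower). The median log2 fold change of the 10 genes, UXS1 siRNA against MRPL42 siRNA, was -0.08. DUSP5 was the only one with an unadjusted p below 0.05, against 0.458% of all genes, at -0.18 with a 95% confidence interval of -0.33 to -0.04 (edgeR adjusted p = 1.000). DUSP5, SPRY2, ETV4 and PHLDA1 had all UXS1 siRNA libraries below all MRPL42 siRNA libraries, against 4.31% of all genes. For DUSP6 the difference was -0.04 with an interval of -0.37 to 0.29, and for ETV5 -0.05 with an interval of -0.21 to 0.12, which does not show that the 2 siRNAs act alike.

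Upstream of these genes, the ligands of receptor tyrosine kinases had 12 tested members of 19. Their median log2 fold change was -0.56 after UXS1 siRNA and -0.45 after MRPL42 siRNA over 9 libraries, and -0.19 and -0.26 without control library c. None passed over 9 libraries. In the fit that left out control library c, VEGFA, an angiogenic factor, and AREG, a ligand of the EGF receptor, fell after UXS1 siRNA, at -0.54 ± 0.08 (edgeR adjusted p = 0.0073) and -0.49 ± 0.08 (adjusted p = 0.011), against 1.07% of all genes called lower. VEGFA also fell after MRPL42 siRNA, at -0.50 ± 0.08 (edgeR adjusted p = 0.0131), against 0.792%. VEGFA was at 57.4, 52.6 and 48.3 CPM in the controls, at 37.0 to 39.3 after UXS1 siRNA and at 36.7 to 41.9 after MRPL42 siRNA, with no overlap. AREG was at 52.6, 46.2 and 90.5 CPM in the controls and at 34.8 to 36.4 after UXS1 siRNA. After MRPL42 siRNA AREG was at 38.0 to 41.1 CPM, also below all controls, without passing the threshold.

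Of the receptor tyrosine kinases, 14 of 19 were tested and none passed in either knockdown, with or without control library c. The medians were -0.14 after UXS1 siRNA and -0.18 after MRPL42 siRNA over 9 libraries, and -0.09 and -0.10 without control library c. EPHA2, an ephrin receptor, came nearest, at -0.34 ± 0.08 after UXS1 siRNA without control library c (edgeR adjusted p = 0.0736). All 20 genes of the cascade from adaptor proteins to ERK were tested and none passed, with medians of -0.10 and -0.16 over 9 libraries and of -0.05 and -0.06 without control library c. Among them MAPK3, which encodes ERK1, had a log2 fold change of 0.28 ± 0.08 after MRPL42 siRNA (edgeR adjusted p = 0.143), and MAP2K1, which encodes MEK1, -0.17 ± 0.07 after UXS1 siRNA (adjusted p = 0.261).

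The 15 other brakes on receptors and RAS had medians of -0.17 after UXS1 siRNA and -0.12 after MRPL42 siRNA over 9 libraries. Without control library c their medians were -0.08 and -0.01. In that fit 1 of the 15 was called lower in each knockdown, against 1.07% of all genes after UXS1 siRNA and 0.792% after MRPL42 siRNA. This was ERRFI1, an inhibitor of the EGF receptor, at -0.50 ± 0.05 after UXS1 siRNA (edgeR adjusted p = 0.0017) and -0.51 ± 0.05 after MRPL42 siRNA (adjusted p = 0.00197). ERRFI1 was at 522 and 542 CPM in control libraries a and b, at 376 CPM in control library c and at 367 to 390 CPM in the knockdowns. Control library c lay within the knockdown range, and over 9 libraries the adjusted p-values were 0.216 and 0.165.

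The 7 other MAP kinase phosphatases had medians of 0.07 after UXS1 siRNA and 0.12 after MRPL42 siRNA over 9 libraries, and of -0.02 and 0.11 without control library c, so that the former changed sign. None passed in either fit. DUSP2, a nuclear phosphatase, was at 0.52 ± 0.17 after UXS1 siRNA (edgeR adjusted p = 0.19) and 0.44 ± 0.17 after MRPL42 siRNA (adjusted p = 0.2). Its level was low, at 1.75 to 2.28 CPM in the controls and 2.59 to 2.86 CPM in the knockdowns. The 14 ERK substrates had medians of -0.10 and -0.05, and none passed. ELK3, an ETS factor of the ternary complex group, was at -0.28 ± 0.08 after UXS1 siRNA (edgeR adjusted p = 0.174).

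Of 30 further genes known as ERK output, 26 were tested, with medians of -0.35 after UXS1 siRNA and -0.27 after MRPL42 siRNA over 9 libraries and of -0.23 and -0.14 without control library c. None passed over 9 libraries. When control library c was left out, 5 were called lower after UXS1 siRNA, namely FOS, EGR1, EMP1, ETS1 and KLF6, against 1.07% of all genes. FOS, a subunit of AP-1, was at 9.5, 9.9 and 8.6 CPM in the controls. It was at 5.6 to 6.6 CPM after UXS1 siRNA, a log2 change of -0.65 ± 0.11 (edgeR adjusted p = 0.0193). EGR1, a zinc-finger factor induced early after stimulation, was at 20.7, 17.7 and 26.7 CPM in the controls. It was at 10.8 to 13.7 CPM after UXS1 siRNA, a change of -0.63 ± 0.11 (edgeR adjusted p = 0.02). After MRPL42 siRNA FOS was at 6.3 to 7.4 and EGR1 at 13.6 to 14.2 CPM. These were also below all controls, without passing the threshold. After MRPL42 siRNA 2 were called lower, EMP1 and ETV1, against 0.792% of all genes. ETV1, the third factor of the PEA3 group, was at 13.5, 14.0 and 15.5 CPM in the controls. It was at 9.3 to 10.6 CPM after MRPL42 siRNA, a change of -0.49 ± 0.09 (edgeR adjusted p = 0.0366). After UXS1 siRNA ETV1 was at 10.9 to 11.9 CPM, also below all controls, without passing the threshold.

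**Figure D4:**
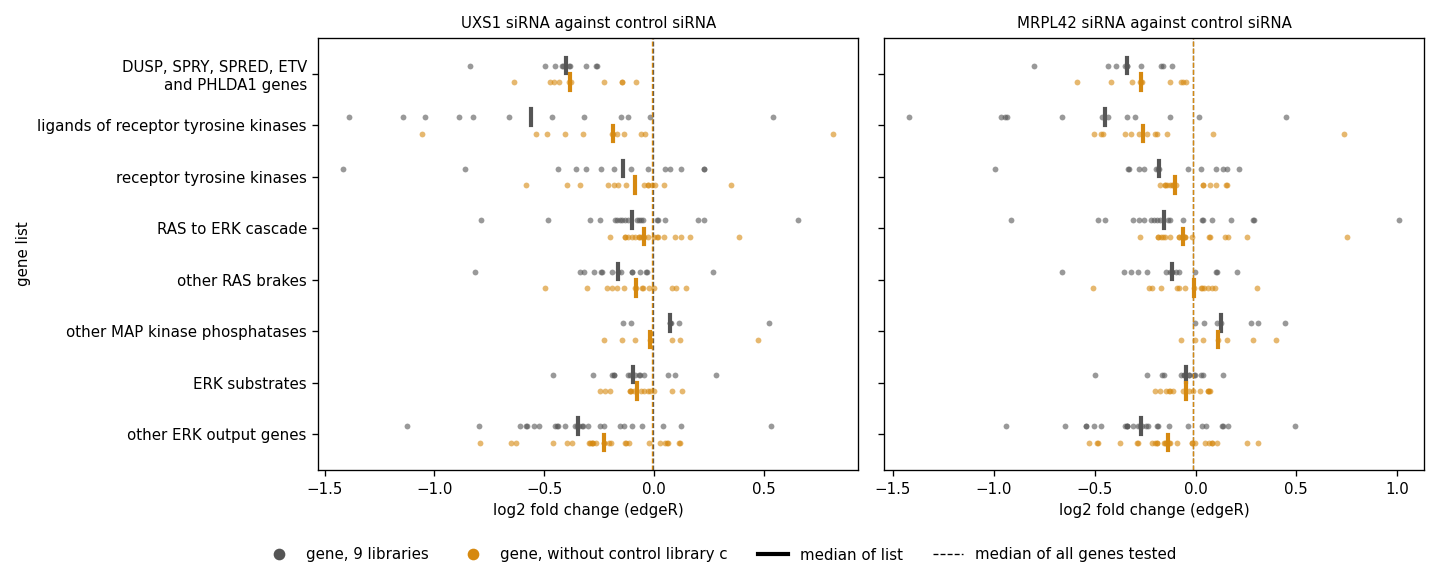
Log2 fold change (horizontal axis, edgeR) of each tested gene (points) in 8 gene lists (rows) for UXS1 siRNA and MRPL42 siRNA against control, over 9 libraries (grey) and without control library c (orange); thick bars are list medians and dashed lines the median of all genes. Without control library c the 10 genes have medians of -0.38 and -0.27. The ligands have medians of -0.19 and -0.26 and the other ERK output genes of -0.23 and -0.14, and the remaining lists lie nearer to 0.

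The genes with levels most like the mean of the 10 were sought among 10477 genes with a mean of 5 CPM or more. Over 9 libraries, which are the same for every gene, they were EMP1 (Pearson r = 0.982), B4GALT1 (0.977), KLF6 (0.976), SLC7A5 (0.976) and FAM83G (0.975). Over the 8 libraries without control library c they included ARHGEF2 (0.979), TNS4 (0.979), MYEOV (0.978) and PYGB (0.973). None of the 5 over 9 libraries was among these. Of the 10 genes themselves, ETV4 followed the mean least over 9 libraries (r = 0.267) and closely over 8 (r = 0.922), and SPRED1 followed it at 0.715 and 0.249. These are descriptions over 9 or 8 points, and each gene is part of the mean it is set against.

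Other values also differed between the libraries, several of them most in control library c. The change of log2 CPM per doubling of transcript length, relative to the mean over libraries, was 0.05 to 0.13 in the control libraries, -0.07 to -0.01 after UXS1 siRNA and -0.10, 0.04 and -0.08 after MRPL42 siRNA. The 10 genes were 0.728 (ETV4) to 2.6 (SPRED1) times the median length of the genes tested. A length correction over 9 libraries moved PHLDA1 from -0.26 to -0.17 after UXS1 siRNA and from -0.17 to -0.06 after MRPL42 siRNA, and DUSP6 from -0.84 to -0.78 after UXS1 siRNA. With that correction and without control library c, DUSP4, DUSP5, DUSP6, SPRED2, ETV4 and ETV5 passed for UXS1 siRNA, against 1.52% of all genes called lower. For MRPL42 siRNA DUSP5, DUSP6, SPRED2, ETV4 and ETV5 then passed, against 1.27%. Of 10 markers of fibroblasts, endothelial cells and leukocytes, 7 were below 1 CPM in every library and CDH5 had no count. Their sum was 89.7 to 323 CPM in the controls, 92.3 to 103 after UXS1 siRNA and 87.3 to 96.7 after MRPL42 siRNA. The highest sum was that of control library c, where LUM was at 277 CPM against 35.4 to 44.0 in the others. DCN was also highest there, at 25.0 CPM against 17.7 to 20.5. PECAM1 was lowest there, at 19.3 CPM against 30.5 to 38.6. Of 7 histone mRNAs, listed as a sign of RNA quality, 4 were tested. Their median log2 fold change was -0.16 after UXS1 siRNA and -0.27 after MRPL42 siRNA over 9 libraries. Without control library c it was 0.45 and 0.34, with 3 and 2 of the 4 higher at an unadjusted p below 0.05 and none past the adjusted threshold. The summed level of the 7 was 21.7 to 54.5 CPM in the controls, 28.5 to 29.5 after UXS1 siRNA and 24.0 to 28.4 after MRPL42 siRNA. KRT19, a keratin of bile duct and progenitor cells, rose after MRPL42 siRNA without control library c, at 0.44 ± 0.07 (edgeR adjusted p = 0.0181), against 0.533% of all genes called higher. It was at 0.20 ± 0.16 over 9 libraries (adjusted p = 0.483). After UXS1 siRNA KRT19 was at 0.32 ± 0.07 without control library c (edgeR adjusted p = 0.0576). The progenitor markers AFP, at 1.64 to 2.69 CPM, and EPCAM, under 1 CPM in every library, did not pass in these fits. What part length, histone mRNAs or these markers have in the results was not tested beyond the values given. The part that the difference of control library c has in the results over 9 libraries is shown by the values given without it, and its cause was not tested.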

How the data were processed

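RNA-seq libraries were made from bead-captured mRNA, per the labels' protocols. The submitters' processing notes name HISAT2, Bowtie2, fastp and edgeR, and hg38 as the build. For the counter, its annotation and its strand setting, no statement was found in the labels or file headers. Per gene, the authors deposited estimated counts, of which 83.6% to 84.9% of those above 0 per library were whole. The design was written for counts, so these were rounded. Columns were tied to groups by name only, and the UXS1 columns have letters exchanged. The other 9 columns, of TPM, were not used. Levels per length, planned from TPM, were instead computed from the counts and the GENCODE 29 annotation (median over principal transcripts).

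Genes passing filterByExpr were scaled by TMM and tested by the quasi-likelihood test of edgeR 4.0.16 (R 4.3.3) with 1 mean per group over 9 libraries, with Benjamini-Hochberg adjustment over all genes tested (two-sided). Limma 3.58.1 and DESeq2 1.42.0 were alternatives, and the scripts were tested on simulated data. The common biological coefficient of variation was 0.130, and 0.0753 without control library c. Coordinates are from GENCODE 29 on GRCh38. Libraries of a group differed by more than sampling noise in every pair (mean chi-square of at least 3.37 a gene), so none was taken as a library deposited again, which does not show separate cultures. Counts of PCR reads are not independent molecules.

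Named genes are the 10 genes, both siRNA targets, from each list those past the threshold (up to 4 by size) or the 2 of smallest p, and the 5 genes most like the mean, of which some are not reported here. KLF6 as the fifth of its list was named after its value was seen. The 10 genes, the 7 pathway lists, the marker lists and the alternatives were chosen with earlier results of these data known. Leaving out control library c together with a length correction was added after seeing the data.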

Additional observations from a re-analysis of the deposited data

How the results depend on the processing

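Each alternative changed 1 choice unless said otherwise. The number of the 10 genes past the threshold was 0 for each knockdown over 9 libraries. For UXS1 siRNA it was 5 with DESeq2 and 6 with limma-voom library weights, where 146 and 442 of all 12657 genes were called lower. It was 3 when only the 6 libraries compared entered, against 22 of 12524 genes called lower. With the length correction it was 1 (DUSP5), against 8 of 12565. It was 6 with that correction and control library c left out, against 192 of 12653. With MRPL42 siRNA library b and control library c left out it was 6, against 417 of 12741. Leaving out 1 library at a time gave 0 to 6, with 6 without control library c, 4 without MRPL42 siRNA library b and 0 without any other. Of all genes, 137 of 12747 were called lower without control library c and 38 of 12787 without MRPL42 siRNA library b. For MRPL42 siRNA it was 5 with DESeq2 and 5 with library weights, where 155 and 666 of 12657 genes were called lower. It was 5 with both libraries left out, against 597 of 12741. With the length correction and control library c left out it was 5, against 161 of 12653. Leaving out 1 library gave 0 to 3, with 3 without control library c and 2 without MRPL42 siRNA library b. Of all genes, 101 of 12747 and 62 of 12787 were called lower in these fits.

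The median after MRPL42 siRNA moved from -0.34 to -0.23 with library weights and to -0.23 with the length correction and control library c left out. In the latter PHLDA1 turned to 0.031 after MRPL42 siRNA. Between the knockdowns, SPRED1 turned to -0.077 without UXS1 siRNA library a and to -0.012 without MRPL42 siRNA library c, and stood at 0.11 without UXS1 siRNA library b and at 0.15 with library weights. DUSP6 ranged from -0.097 without MRPL42 siRNA library a to 0.026 without MRPL42 siRNA library b, and turned to 0.021 when control library c was left out too. The causes were not tested. The other values for single genes kept their direction. The alternatives on log2(TPM + 1) and log2(TPM + 0.1) were not run, since those columns were not used. No paired analysis was possible because the columns carry letters that no label ties to the repeat numbers.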
